A study of Mus musculus with 6 samples.

Results

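Newly made collagen is hydroxylated inside the cell and crosslinked outside it, and 10 genes for the enzymes of these steps were examined among the 16455 genes listed in cultured mouse osteoblasts. Members were taken by name from the deposited count table: 5 lysyl oxidase genes (Lox, Loxl1, Loxl2, Loxl3 and Loxl4), 3 alpha subunits of prolyl 4-hydroxylase (P4ha1, P4ha2 and P4ha3) and 2 lysyl hydroxylases (Plod1 and Plod2). All 10 passed the filter on low counts, and the lowest count of any member in any library was 244 reads. RNA sequencing compared wild-type (WT) osteoblasts with those of triple conditional knockout (TCKO) mice, with 3 libraries per genotype. TCKO mice carried Prx1-Cre, which is active in the mesenchyme of limb and skull, with Tet1 fl/fl, Tet2 fl/fl and Tet3 fl/fl alleles, so that the enzymes that oxidise 5-methylcytosine were targeted in that mesenchyme. Both genotypes were of the C57/B6 strain, were 3 days old and had their cells cultured for 3 days. The sources used here do not say whether the WT animals carried Cre or floxed alleles. Cells were released from parietal bone by digestion, so a library can hold several cell types, and lower RNA of a gene in such bulk samples cannot be told apart from fewer cells of a type that expresses it.

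In the endoplasmic reticulum, prolyl 4-hydroxylases modify prolines of new collagen chains, which holds the triple helix together at body temperature, and lysyl hydroxylases modify lysines that later become sites of sugars and crosslinks. Outside the cell, lysyl oxidases use copper to convert lysines and hydroxylysines to aldehydes, from which crosslinks between collagen or elastin molecules form. In bone these crosslinks help set how collagen fibrils mature and mineralise.

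The catalytic part of the lysyl oxidases binds copper through histidines, and the coding bases of that stretch are shown since Loxl1 and Loxl3, which rose, and Loxl4, which fell, share this site, and Loxl2 is the nearest relative of Loxl4 in it. Sequences are 33 bases of the sense strand from the longest protein-coding GENCODE transcript of build GRCm38, and capitals mark the 4 histidine codons.
Loxl1: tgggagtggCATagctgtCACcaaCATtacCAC
Loxl2: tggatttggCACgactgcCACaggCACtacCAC
Loxl3: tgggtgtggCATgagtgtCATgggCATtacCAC
Loxl4: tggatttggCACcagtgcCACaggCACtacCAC
Loxl2 and Loxl4 were identical at 31 of the 33 bases, Loxl3 and Loxl4 at 25, and Loxl1 and Loxl4 at 21. Over whole transcripts, the longest exact stretch shared by any pair of lysyl oxidases was 32 bases, between Lox and Loxl1, and by any pair of prolyl 4-hydroxylase subunits 16 bases. Genes lay in GRCm38.p6 on chromosome 9 for Loxl1 (58287723 to 58313212, minus strand), chromosome 14 for Loxl2 (69608692 to 69695834, plus strand), chromosome 6 for Loxl3 (83034205 to 83052566, plus strand) and chromosome 19 for Loxl4 (42592279 to 42612806, minus strand). P4ha3 lay on chromosome 7 (100285489 to 100319701, plus strand), P4ha1 on chromosome 10 (59323197 to 59373304, plus strand) and P4ha2 on chromosome 11 (54100924 to 54131668, plus strand). Plod1 lay on chromosome 4 (147909753 to 147936776, minus strand) and Plod2 on chromosome 9 (92539636 to 92608428, plus strand).

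Libraries held 8119261 to 10657824 reads. Replicates 1 and 2 of a genotype were nearly alike, with a chi-square per degree of freedom of 1.75 in WT and 2.53 in TCKO, where sampling noise alone gives about 1, while replicate 3 differed from either by 15.8 to 23.0. The labels name no separate animals or cultures, so p-values measure spread among these libraries alone, possibly technical in origin, and for each of the 10 enzyme genes replicate 3 is also given apart from the others. Of the targeted genes, Tet1 stood at 8.86, 9.30 and 11.02 counts per 1000000 reads (CPM) in WT and 6.53, 4.67 and 3.99 in TCKO, and it fell by 0.94 on the log2 scale (edgeR adjusted p = 0.0207). Tet2 did not pass the test (edgeR adjusted p = 0.244), and Tet3 was higher in TCKO by 0.48 on the log2 scale (edgeR adjusted p = 0.00803). These are counts over whole genes, in which the deleted exons are not separated, and so give no check of the labels. Of 9 osteoblast markers, 6 were tested and Bglap and Dmp1 were not listed, and they moved in different directions. Runx2, the osteoblast transcription factor, ran from 66.6 to 71.9 CPM in WT and 48.2 to 56.5 in TCKO, and Alpl, the alkaline phosphatase gene, from 18.7 to 61.8 and 2.66 to 5.20. Ibsp, a bone sialoprotein, ran from 4.19 to 4.83 CPM in WT and 1.97 to 7.75 in TCKO, and Spp1, the osteopontin gene, from 861 to 2031 and 3813 to 10574. Sp7, a transcription factor, stood at 74.2, 73.8 and 199 CPM in WT and 21.1, 22.2 and 71.4 in TCKO. The groups of Sp7 did not overlap, and it passed only with the replicate block (edgeR adjusted p = 3.92e-05, and 0.166 without the block). By the edgeR adjusted p, Spp1 was called higher and Runx2, Alpl and Col1a1 lower. With single libraries left out, 0 to 1 were higher and 0 to 3 lower, with 0 and 0 without TCKO replicate 1, and with the replicate block 0 and 4. Over all genes, 9.44% were higher and 8.9% lower by the edgeR adjusted p, and 12.7% and 11.9% with the replicate block. With single libraries left out, 4.4% to 12.2% of all genes were higher and 4.15% to 11.6% lower. The 6 chondrocyte markers summed to 6260 to 8326 CPM in WT and 673 to 953 in TCKO, and all 6 were lower in TCKO. With single libraries left out 5 or 6 were lower, and after replicates 1 and 2 were summed 2 were (1.08% of all genes). In TCKO, Matn1 had 9, 9 and 1 reads and Col10a1 had 7, 5 and 8. The 6 macrophage markers summed to 420 to 752 CPM in WT and 160 to 553 in TCKO, and 1 of them was lower in TCKO (5 with the replicate number as a block). Their part in the results on the enzymes was not tested. None of the 5 endothelial markers passed the filter on low counts. Of 2 skeletal muscle markers tested, Acta1, an actin of muscle, stood at 3.91, 2.56 and 7.79 CPM in WT and 48.1, 50.3 and 20.6 in TCKO and was called higher (edgeR adjusted p = 0.0111, but 0.0635 with the replicate block and 0.0551 without WT replicate 1), while Myod1 and Myog did not pass the filter. Of 4 tendon and fibroblast markers tested, with a median log2 fold change of −0.89, Tnmd was called lower (edgeR adjusted p = 0.0256), and with the replicate block Pdgfra was as well (0.000204). Without any 1 of the replicates numbered 1 or 2 in either genotype that list had 0 calls (4.15% to 4.63% of all genes were lower). How these markers bear on the enzymes was not tested either.

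Of the 10 enzyme genes, Loxl1 and Loxl3 rose and Loxl4 and P4ha3 fell in TCKO, and 6 did not pass the test (edgeR quasi-likelihood test, adjusted p under 0.05 over 13630 genes). Over all genes tested, 9.44% were higher and 8.9% lower by that rule, 18.3% in either direction. The 3 WT and 3 TCKO values did not overlap for 7 of the 10 genes, against 38.2% of all genes tested. Loxl4 alone passed with a fold above 2, a rule met by 3.06% of all genes in the lower direction and 3.01% in the higher. No enzyme gene was higher by that rule, while 3 were higher and 4 lower at an unadjusted p under 0.05 in edgeR, against 16.6% and 16.3% of all genes. DESeq2 called 3 higher and 3 lower, against 9.16% and 8.73% of all genes. With the replicate number as a block, 3 were higher and 3 lower, since Loxl2 and Lox were then called, against 12.7% and 11.9% of all genes. All 4 calls held with each single library left out, as for 7.59% of all genes. Summing replicates 1 and 2 into 1 library left 1 higher (Loxl3) and 1 lower (Loxl4), against 1.36% and 1.08% of all genes. Leaving out replicate 3 of both genotypes gave 4 higher and 3 lower, against 23.6% and 22.7% of all genes. The median log2 fold change was −0.13 over the 10 genes and −0.001 over all genes.

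**Figure D1:**
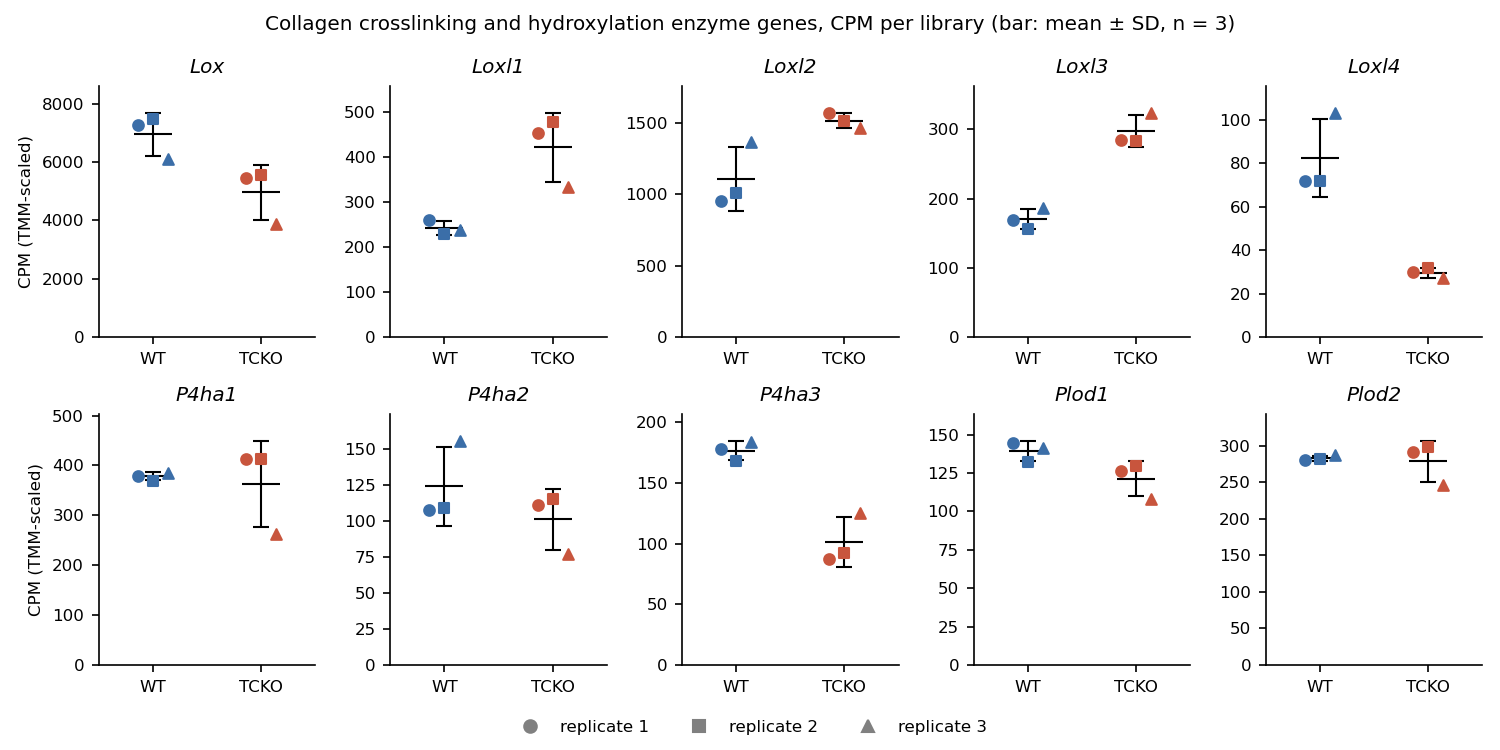
CPM of each of the 10 enzyme genes in the 6 libraries (y axis, scaled by TMM and starting at 0), with WT in blue, TCKO in red, a marker shape per replicate number and bars for the mean ± SD of 3 libraries. Loxl4 lies at 71.9 to 103 CPM in WT and 27.0 to 31.7 in TCKO, whereas Plod2 overlaps between genotypes.

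Lox, the founding lysyl oxidase and the most abundant of these enzymes, stood at 7279, 7473 and 6122 CPM in WT and 5460, 5547 and 3891 in TCKO. All TCKO values lay under all WT values, and replicate 3 was the lowest library of each genotype. Its log2 fold change was −0.49 ± 0.16 (SE, n = 3 per genotype, 95% interval −0.84 to −0.13), and it did not pass the test (edgeR adjusted p = 0.0647). It did pass with the replicate block (edgeR adjusted p = 0.0108), by DESeq2 (adjusted p = 0.0132), without WT replicate 3 (edgeR adjusted p = 0.038) and without TCKO replicate 3 (edgeR adjusted p = 0.0369). Without any other single library it did not pass (edgeR adjusted p 0.0988 to 0.21). Nor did it pass by limma-voom (adjusted p = 0.0582) or after replicates 1 and 2 were summed (edgeR adjusted p = 0.328). The log2 difference between genotypes was −0.42 in replicates 1 and 2 and −0.65 in replicate 3.

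Loxl1, a lysyl oxidase best known for elastic fibres, stood at 259.9, 229 and 238 CPM in WT and 453, 477 and 334 in TCKO. Every TCKO library was above every WT library, and TCKO replicate 3 lay nearest to WT. Loxl1 rose 1.74-fold, by 0.80 ± 0.13 on the log2 scale (95% interval 0.49 to 1.11, edgeR adjusted p = 0.00618). It was called with each single library left out (edgeR adjusted p 9.94e-05 to 0.0392). Summing replicates 1 and 2 into 1 library ended the call (edgeR adjusted p = 0.111). The log2 difference was 0.93 in replicates 1 and 2 and 0.49 in replicate 3.

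Loxl2, which crosslinks basement membrane and fibrillar collagens, stood at 951, 1011 and 1364 CPM in WT and 1569, 1515 and 1462 in TCKO. Groups did not overlap, but WT replicate 3 lay close to the TCKO values. The log2 fold change was 0.45 ± 0.14 (95% interval 0.14 to 0.76), which did not pass the test (edgeR adjusted p = 0.0542). It passed with the replicate block (edgeR adjusted p = 0.0362), by DESeq2 (adjusted p = 0.013), by limma-voom (adjusted p = 0.0447), without a filter on low counts (edgeR adjusted p = 0.0487) and without WT replicate 3, where the log2 fold change was 0.63 (edgeR adjusted p = 0.00117). Without any other single library it did not pass (edgeR adjusted p 0.0743 to 0.195). Nor did it pass after replicates 1 and 2 were summed (edgeR adjusted p = 0.403). The log2 difference between genotypes was 0.65 in replicates 1 and 2 and 0.10 in replicate 3.

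Loxl3, a lysyl oxidase needed for palate and spine formation in mice, stood at 169.8, 157 and 186 CPM in WT and 284, 283 and 324 in TCKO. Every TCKO library was above every WT library, and replicate 3 was the highest of both genotypes. Loxl3 rose 1.74-fold, by 0.80 ± 0.09 on the log2 scale (edgeR adjusted p = 0.00102), and passed also with each single library left out (edgeR adjusted p at most 0.00924) or after summing replicates 1 and 2 (0.0464). The log2 difference was 0.80 in replicates 1 and 2 and 0.80 in replicate 3. Its exons overlap those of Htra2, a mitochondrial protease gene on the opposite strand, over 535 bases (11.6% of its exon length), and the sources used here do not say whether the counting used strand. Htra2 had 59.7 ± 5.65 CPM in WT and 62.0 ± 8.69 in TCKO (SD, n = 3 each) and did not pass the test (edgeR adjusted p = 0.783).

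Loxl4, a lysyl oxidase of the same subgroup as Loxl2 and Loxl3, stood at 71.9, 71.9 and 103 CPM in WT and 30.007, 31.7 and 27.0 in TCKO. WT replicate 3 was the highest library and TCKO replicate 3 the lowest, and the groups did not overlap. Loxl4 fell by 1.48 ± 0.16 on the log2 scale (95% interval −1.84 to −1.11, edgeR adjusted p = 0.000937), 2.78-fold lower in TCKO. The call held with each single library left out (edgeR adjusted p at most 0.00792) and after summing replicates 1 and 2 (0.0307). Between genotypes, replicates 1 and 2 differed by −1.22 and replicate 3 by −1.93 on the log2 scale. Among 8394 genes compared by the root mean square difference of centred log2 CPM over the 6 libraries, the nearest profiles to that of Loxl4 were Cxcl14, a chemokine, at 0.114 and Anxa8, a calcium-dependent membrane-binding protein, at 0.118. Those nearest to Loxl1 were Mbnl3, a splicing regulator (0.0738), and Tns1, a focal adhesion protein (0.0785). Nearest to Loxl3 were Zfp36l1, an RNA-binding protein of mRNA decay (0.0385), and Ezh2, a histone methyltransferase (0.0498).

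**Figure D2:**
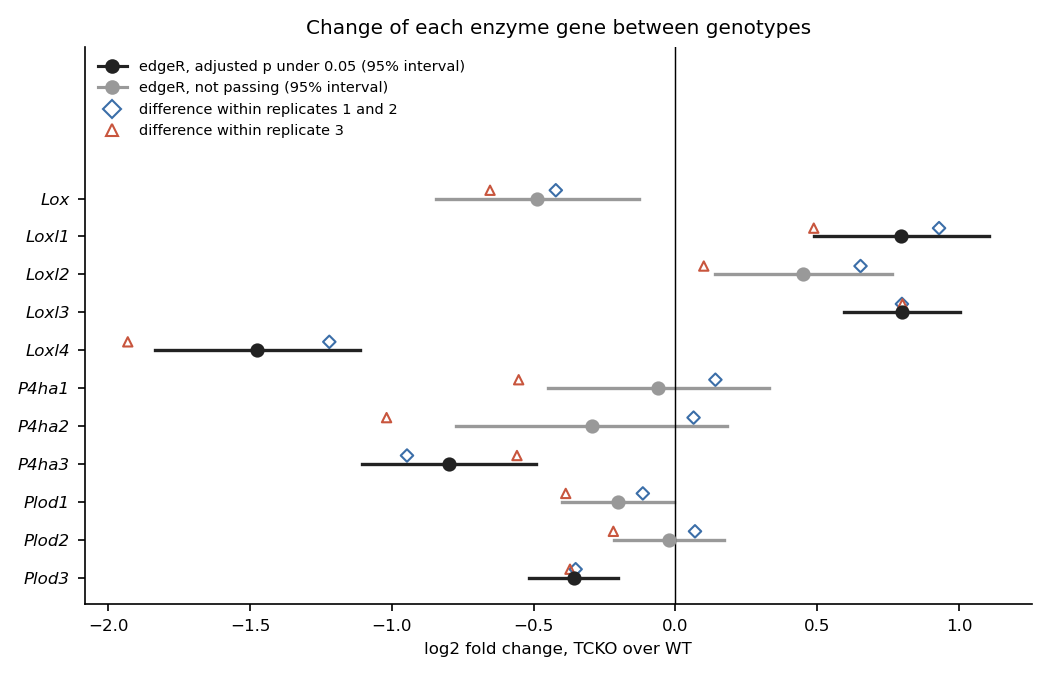
Log2 fold change of TCKO over WT for each of the 10 enzyme genes and Plod3 (x axis) with its 95% interval, in black where the edgeR adjusted p is under 0.05 and grey otherwise, beside the difference in replicates 1 and 2 and in replicate 3 alone. Loxl3 lies at 0.80 in both sets of replicates, while P4ha1 lies at 0.14 in replicates 1 and 2 and at −0.55 in replicate 3.

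P4ha1, which encodes the main alpha subunit of prolyl 4-hydroxylase in most cells, stood at 379.7, 369.5 and 385 CPM in WT and 413, 413 and 262 in TCKO. TCKO replicates 1 and 2 lay above the WT values and TCKO replicate 3 below them. The log2 fold change was −0.06 ± 0.17 (95% interval −0.45 to 0.33, edgeR adjusted p = 0.84), from 0.14 in replicates 1 and 2 and −0.55 in replicate 3. Without TCKO replicate 3 it was 0.13 (edgeR adjusted p = 0.169), and with replicate 3 of both genotypes left out it was 0.15 and passed the test (edgeR adjusted p = 0.00422).

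P4ha2, the alpha subunit known from cartilage and bone cells, stood at 108, 109 and 156 CPM in WT against 111, 115 and 76.8 in TCKO. The groups overlapped, with replicate 3 the highest library of WT and the lowest of TCKO. The log2 fold change was −0.30 ± 0.20 (95% interval −0.77 to 0.18, edgeR adjusted p = 0.358), from 0.06 in replicates 1 and 2 and −1.02 in replicate 3.

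P4ha3, the alpha subunit described last and the least studied, stood at 178, 168 and 184 CPM in WT and 87.5, 92.1 and 125 in TCKO. Every TCKO library was below every WT library, with TCKO replicate 3 nearest to WT. P4ha3 fell by 0.80 ± 0.13 on the log2 scale (95% interval −1.11 to −0.49, edgeR adjusted p = 0.00604) and was called with each single library left out (edgeR adjusted p 8.79e-05 to 0.0301), but not after replicates 1 and 2 were summed (edgeR adjusted p = 0.108). The log2 difference was −0.95 in replicates 1 and 2 and −0.56 in replicate 3. The nearest profiles were those of Rgs12, a regulator of G-protein signalling, at 0.0529 and Orai2, a calcium channel subunit, at 0.0553.

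Promoter bases of Loxl4 and P4ha3, the members that fell, are shown for their CpG dinucleotides, the sites at which TET enzymes act. These are the 250 bases before the start in the RefSeq promoter table of GRCm38.p6, on the gene's own strand (chr19:42612807-42613056, minus strand, for Loxl4 and chr7:100285270-100285519, plus strand, for P4ha3), and capitals mark CpG. The P4ha3 stretch runs past the gene start given above (100285489), so its last bases lie within the gene as placed there. That of P4ha1, counted below, also runs past its gene start.
Loxl4: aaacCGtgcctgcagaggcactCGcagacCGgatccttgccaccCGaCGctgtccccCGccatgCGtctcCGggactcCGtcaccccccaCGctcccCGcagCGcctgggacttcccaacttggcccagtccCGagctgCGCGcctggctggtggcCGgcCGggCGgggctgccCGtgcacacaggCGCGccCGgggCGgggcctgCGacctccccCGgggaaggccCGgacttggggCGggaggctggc
P4ha3: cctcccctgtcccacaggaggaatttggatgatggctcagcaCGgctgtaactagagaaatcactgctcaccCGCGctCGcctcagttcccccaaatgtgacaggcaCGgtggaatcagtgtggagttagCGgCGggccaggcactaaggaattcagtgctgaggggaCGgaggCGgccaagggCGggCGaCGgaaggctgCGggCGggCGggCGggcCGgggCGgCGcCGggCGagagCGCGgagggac
Loxl4 had 27 CpG and P4ha3 had 23, against a median of 6 over the 32851 promoters of the table. Of these promoters, 91.4% had fewer CpG than Loxl4 and 86.7% fewer than P4ha3. Of the 10 members, 5 had an entry, and P4ha1 with 24 CpG, P4ha2 with 21 and Plod1 with 16, none of which passed the test, were also above the median. The core sequence bound by RUNX factors, TGTGGT on either strand, occurred once among these 5 promoters, in P4ha2, and in 14.045% of all promoters. The core of hypoxia response elements, ACGTG on either strand, occurred in P4ha1 and P4ha2 and in 16.6% of all promoters. No methylation was measured in these libraries.

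Plod1, a lysyl hydroxylase acting on the helical part of collagen, stood at 145, 132 and 141 CPM in WT against 126, 129 and 108 in TCKO. The groups did not overlap, but the gap between WT replicate 2 and TCKO replicate 2 was narrow. The log2 fold change was −0.20 ± 0.09 (edgeR adjusted p = 0.144), from −0.12 in replicates 1 and 2 and −0.39 in replicate 3. Plod2, the lysyl hydroxylase of the collagen telopeptides, stood at 281, 282 and 287 CPM in WT and 292, 299 and 247 in TCKO. TCKO replicate 3 lay below WT and the other two TCKO libraries above it, for a log2 fold change of −0.02 ± 0.08 (95% interval −0.22 to 0.17, edgeR adjusted p = 0.889), from 0.07 in replicates 1 and 2 and −0.22 in replicate 3. Plod3, the family member outside the 10 and the one that also adds sugars, stood at 526, 534 and 559.5 CPM in WT and 411, 419 and 432 in TCKO. Its groups did not overlap, and it fell by 0.36 ± 0.07 on the log2 scale (edgeR adjusted p = 0.00951). That call was lost without TCKO replicate 1 (edgeR adjusted p = 0.0573) and without TCKO replicate 2 (edgeR adjusted p = 0.0524).

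Levels of different genes were compared as CPM per kilobase of exon. In WT the order ran from Lox at 1456 ± 153 over Loxl2 at 205 ± 41.3, P4ha1 at 91.9 ± 1.90, Loxl1 at 73.5 ± 4.78, P4ha3 at 56.4 ± 2.59, Plod2 at 52.55 ± 0.652 and Loxl3 at 37.1 ± 3.18 (SD, n = 3 each) to Plod1 at 20.6, P4ha2 at 19.9 and Loxl4 at 19.5, whose ranges overlapped. In TCKO, Loxl1 at 128 ± 23.2 stood above P4ha1 at 88.2 ± 21.1, and Loxl3 at 64.5 ± 5.03 stood above Plod2 at 51.8 ± 5.22 and P4ha3 at 32.4 ± 6.51. The ranges of P4ha1 and Loxl3 overlapped in TCKO, as did those of Plod1 and P4ha2, and Loxl4 at 7.02 ± 0.564 was the lowest.

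As shares of the summed lysyl oxidase level per kilobase, Lox made up 83.1%, 83.6% and 76.7% in WT and 69.7%, 70.1% and 64.5% in TCKO. Every TCKO share of Lox was below every WT share. Loxl1 made up 4.11% ± 0.346 in WT and 8.38% ± 0.360 in TCKO, Loxl2 11.6% ± 3.07 and 18.7% ± 2.40, Loxl3 2.08% ± 0.305 and 4.35% ± 1.06, and Loxl4 1.10% ± 0.313 and 0.466% ± 0.0378 (SD, n = 3 each). The family summed to 1792 ± 106 CPM per kilobase in WT and 1519 ± 222 in TCKO.

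**Figure D3:**
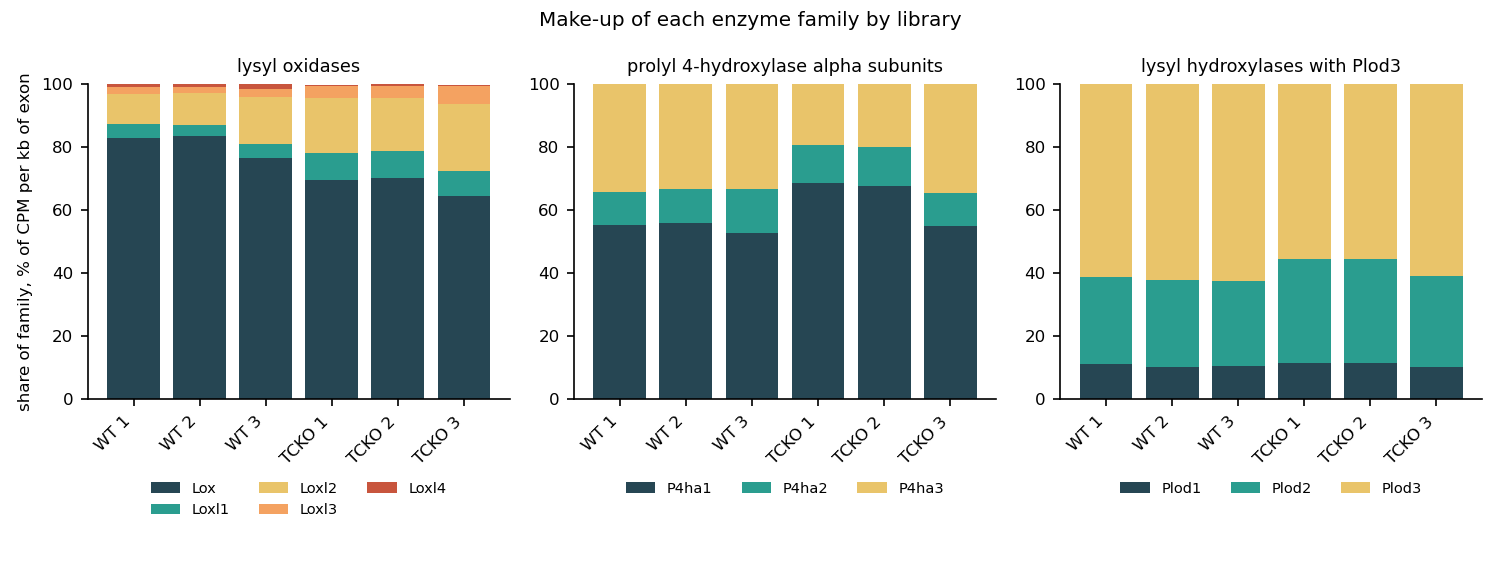
Share of each gene in the summed CPM per kilobase of exon of its family (y axis, percent), for the 6 libraries of WT and TCKO. Lox takes 76.7% to 83.6% of the lysyl oxidases in WT and 64.5% to 70.1% in TCKO.

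Among prolyl 4-hydroxylase alpha subunits, P4ha3 made up 34.2%, 33.3% and 33.1% in WT and 19.1%, 19.8% and 34.4% in TCKO. TCKO replicates 1 and 2 stood apart from WT, and TCKO replicate 3 lay just above the WT values. P4ha1 made up 55.5%, 55.9% and 52.8% in WT against 68.7%, 67.7% and 55.0% in TCKO. The 3 subunits summed to 168 ± 8.33 CPM per kilobase in WT and 137 ± 18.1 in TCKO. Of the lysyl hydroxylases with Plod3 included, Plod2 made up 27.4%, 27.5% and 26.9% in WT and 33.0%, 33.1% and 29.1% in TCKO. Each TCKO share of Plod2 was above those of WT, and the share of Plod1 was 10.7% ± 0.511 in WT and 10.99% ± 0.725 in TCKO (SD, n = 3 each).

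Ratios between genes of the same library do not depend on how library sizes were scaled, and 9 were tested by a 2-sided exact permutation test with 3 libraries against 3, which cannot give a p below 0.1. Groups did not overlap for 7 of the 9, each at that smallest p of 0.1 (exact permutation test, 0.129 after Benjamini-Hochberg adjustment over the 9). For Loxl3 to Loxl4, Loxl1 to Lox and Loxl2 to Lox, the single genes already separated in opposite directions. Those ratios could then only separate too, so their p adds nothing to the single-gene values. The ratio of Loxl3 to Loxl4, which rose and fell as single genes, was 2.16, 1.995 and 1.65 in WT and 8.66, 8.18 and 10.97 in TCKO. Every TCKO ratio was over the highest WT ratio, by a log2 difference of 2.26 ± 0.17 or 4.78-fold. Loxl1 to Lox stood at 0.0517, 0.0445 and 0.0564 in WT and 0.120, 0.125 and 0.124 in TCKO, a log2 difference of 1.28 ± 0.10. Loxl2 to Lox differed by 0.97 ± 0.29 on the log2 scale. In replicate 3 taken apart, the genotypes differed by 2.73 for Loxl3 to Loxl4, by 1.14 for Loxl1 to Lox and by 0.75 for Loxl2 to Lox.

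Plod2 to Plod1, the telopeptide against the helical lysyl hydroxylase, was 2.43, 2.68 and 2.55 in WT and 2.90, 2.90 and 2.86 in TCKO. Groups did not overlap, at a log2 difference of 0.18 ± 0.04 or 1.13-fold (0.17 in replicate 3). P4ha3 to P4ha1 was 0.616, 0.596 and 0.627 in WT against 0.278, 0.293 and 0.625 in TCKO, and the groups overlapped (exact permutation p = 0.3, n = 3 each). The log2 difference of that ratio was −1.09 in replicates 1 and 2 and −0.01 in replicate 3. P4ha2 to P4ha1 overlapped as well (exact permutation p = 0.2, n = 3 each).

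Against type I collagen, the sum of Col1a1 and Col1a2 per kilobase, the lysyl oxidases stood at 0.462, 0.499 and 0.461 in WT and 0.628, 0.618 and 0.748 in TCKO. Every TCKO ratio was above every WT ratio, by a log2 difference of 0.48 ± 0.10. The log2 difference was 0.42 ± 0.12 for the 3 P4ha subunits and 0.66 ± 0.14 for Plod1 and Plod2 summed, again without overlap. In replicate 3 alone these 3 differences were 0.70, 0.49 and 0.84. In these ratios both parts are RNA levels, and the collagen in the denominator was lower in TCKO, as given next.

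**Figure D4:**
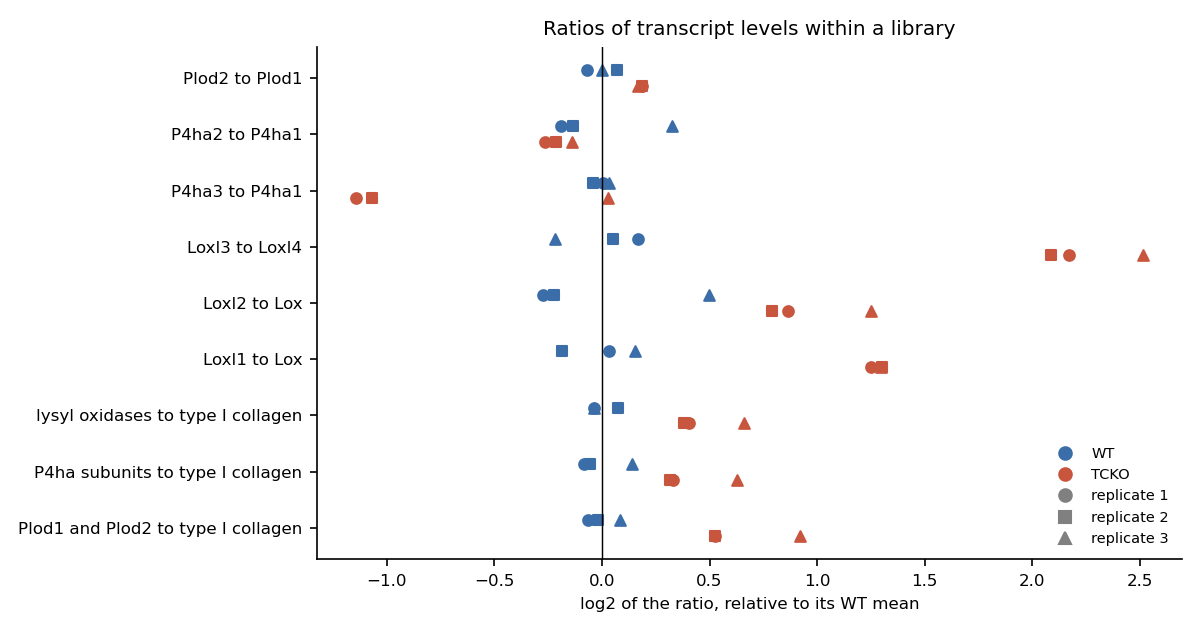
The 9 ratios between enzyme genes, or between an enzyme family and type I collagen, in each of the 6 libraries as log2 of the ratio minus its WT mean (x axis), WT in blue, TCKO in red and a marker shape per replicate number. Loxl3 to Loxl4, 8.18 to 10.97 in TCKO before that scaling, lies farthest from WT, while P4ha3 to P4ha1 overlaps.

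Of the 10 collagen and elastin substrate genes, 1 rose and 5 fell, with a median log2 fold change of −0.69 (2 and 7 with the replicate block, 0 and 2 with replicates 1 and 2 summed, and 3 and 7 with replicate 3 of both genotypes left out). Over all genes 9.44% rose and 8.9% fell, and 12.7% and 11.9% did with the replicate block. The shares were 1.36% and 1.08% after summing, and 23.6% and 22.7% with replicate 3 of both genotypes left out. Summing ended the calls of Col1a1, Col5a1 and Eln among the genes named here (edgeR adjusted p 0.222, 0.0938 and 0.0696). Col1a1, the main chain of bone collagen, stood at 18674, 17518 and 17129 CPM in WT and 12505, 12834 and 8947 in TCKO. Its groups did not overlap, and it fell by 0.64 ± 0.15 on the log2 scale (edgeR adjusted p = 0.0232). That call was lost without WT replicate 1 (edgeR adjusted p = 0.101), WT replicate 2 (0.0847) or TCKO replicate 1 (0.0624). Col1a2, its partner chain, differed by −0.87 ± 0.29 on the log2 scale, which missed the threshold (edgeR adjusted p = 0.0792), and it passed with the replicate block (edgeR adjusted p = 0.0335) and without TCKO replicate 3 (edgeR adjusted p = 0.00113), but not after summing (0.261). Col2a1, the cartilage collagen and also a marker of the chondrocyte list, fell by 3.15 ± 0.17 (edgeR adjusted p = 6.38e-05), and Col11a1, a collagen of cartilage fibrils, fell by 2.11 ± 0.16 (edgeR adjusted p = 0.0002). Col5a1, which limits fibril width, fell by 0.74 ± 0.10 (edgeR adjusted p = 0.00219), and Eln, the elastin gene, fell by 1.72 ± 0.23 (edgeR adjusted p = 0.00303). The chondrocyte markers given above fell in the same libraries, and their part in these values was not tested.

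Of 12 other genes of collagen modification in the endoplasmic reticulum that were tested, 4 fell and none rose, with a median of −0.21 (9.44% of all genes rose and 8.9% fell). At an unadjusted p under 0.05, 1 was higher and 5 were lower in edgeR (16.6% and 16.3% of all genes). DESeq2 called 0 higher and 4 lower (9.16% and 8.73% of all genes). Besides Plod3 the calls were Leprel4, a partner of lysyl hydroxylase 1, which fell by 0.67 ± 0.08 (edgeR adjusted p = 0.00113), Leprel2, a prolyl 3-hydroxylase family member, which fell by 0.41 ± 0.07 (edgeR adjusted p = 0.00595), and Crtap, the cartilage-associated protein of the prolyl 3-hydroxylation complex, which fell by 0.28 ± 0.07 (edgeR adjusted p = 0.0215). The call of Crtap was lost without any 1 of the WT or TCKO replicates numbered 1 or 2 (edgeR adjusted p 0.0858 to 0.0996). P4hb, the beta subunit shared by the P4ha enzymes, stood at 1374, 1405 and 1644 CPM in WT against 1698, 1757 and 1388 in TCKO. The groups overlapped, differing by 0.13 ± 0.12 on the log2 scale (edgeR adjusted p = 0.482). The list had 2 calls, both lower, without TCKO replicate 1 (4.53% of all genes were lower) and 2 without TCKO replicate 2 (4.63%). After replicates 1 and 2 were summed it had 0 (1.36% of all genes were higher and 1.08% lower). With replicate 3 of both genotypes left out, 2 were higher and 7 lower (23.6% and 22.7% of all genes).

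Of 7 genes of procollagen processing, 3 rose and none fell, with a median of 0.48 (9.44% of all genes rose and 8.9% fell). The replicate block gave 4 higher and 2 lower, the latter Pcolce, an enhancer of the C-proteinase (edgeR adjusted p = 0.0249), and Adamts2, a procollagen N-proteinase (0.0301), both named after their values were seen. Summing replicates 1 and 2 left 1 higher, Adamts14, with Tll1 at 0.0749 and Bmp1 at 0.285 (edgeR adjusted p). Over all genes, 12.7% were higher and 11.9% lower with the replicate block, and 1.36% and 1.08% after summing. At an unadjusted p under 0.05, 3 were higher and 2 lower in edgeR (16.6% and 16.3% of all genes). DESeq2 called 3 higher and 2 lower (9.16% and 8.73% of all genes). Tll1, a tolloid protease that cuts procollagen and activates lysyl oxidase, stood at 11.9, 12.6 and 15.7 CPM in WT and 31.3, 27.7 and 50.4 in TCKO. Every TCKO value lay above WT, and Tll1 rose by 1.45 ± 0.24 on the log2 scale (edgeR adjusted p = 0.00739). Adamts14, which also removes the N-propeptide, rose by 1.22 ± 0.14 (edgeR adjusted p = 0.00105). Bmp1, the other tolloid protease that releases the active lysyl oxidase, rose by 0.48 ± 0.13 (edgeR adjusted p = 0.0342), a call kept only without WT replicate 3 among the single libraries left out (edgeR adjusted p 0.000523, and 0.0683 to 0.13 for the others).

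Of 9 genes for partners of lysyl oxidase and for copper supply, 2 fell and none rose, with a median of −0.24 (3 fell with the replicate block and 1 after replicates 1 and 2 were summed). Over all genes 9.44% rose and 8.9% fell, while 11.9% fell with the replicate block and 1.08% after summing. At an unadjusted p under 0.05, 1 was higher and 4 were lower in edgeR (16.6% and 16.3% of all genes). DESeq2 called 0 higher and 2 lower (9.16% and 8.73% of all genes). Fmod, a small proteoglycan that binds collagen and Lox, stood at 1481, 1490 and 873 CPM in WT against 318, 312 and 378 in TCKO. The groups did not overlap, and Fmod fell by 1.93 ± 0.21 on the log2 scale (edgeR adjusted p = 0.00149). Fn1, the fibronectin gene, fell by 0.47 ± 0.13 (edgeR adjusted p = 0.0413), a call kept without TCKO replicate 3 and lost without any other single library (edgeR adjusted p 0.0514 to 0.139). Without any 1 of the replicates numbered 1 or 2 in either genotype, the list had 1 call, where 4.15% to 4.63% of all genes were lower.

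P4ha1, P4ha2, Plod2 and several lysyl oxidases are known targets of the hypoxia-inducible factors, so other targets were counted. Of 14, 4 rose and none fell, with a median of 0.37, where 9.44% of all genes rose. At an unadjusted p under 0.05, 5 were higher and 0 lower in edgeR (16.6% and 16.3% of all genes). DESeq2 called 4 higher and 0 lower (9.16% and 8.73% of all genes). The calls were Slc2a1, a glucose transporter, by 0.85 ± 0.13 (edgeR adjusted p = 0.00377), Adm, the adrenomedullin gene, by 0.76 ± 0.13 (edgeR adjusted p = 0.00678), Pgk1, a glycolytic enzyme, by 0.71 ± 0.13 (edgeR adjusted p = 0.00823), and Vegfa, an angiogenic factor, by 0.70 ± 0.15 (edgeR adjusted p = 0.0198). The call of Vegfa was lost with the replicate block (edgeR adjusted p = 0.0511) and without any 1 of the WT or TCKO replicates numbered 1 or 2 (edgeR adjusted p 0.069 to 0.0829). Leaving out TCKO replicate 3 gave 9 calls (10.9% of all genes were higher). Leaving out any other single library gave 3 or 4 (4.4% to 12.2% of all genes were higher), and summing replicates 1 and 2 gave 0 (1.36%). With replicate 3 of both genotypes left out, 11 were higher (23.6% of all genes). In the fit to all libraries the other 10 targets did not pass. Of them, only Car9 (−0.46) and Ndrg1 (−0.32) had a negative log2 fold change. P4ha1, P4ha2 and Plod2 were not called (−0.06, −0.30 and −0.02), and the lysyl oxidases moved in both directions. Whether hypoxia bears on the enzymes was not tested.

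**Figure D5:**
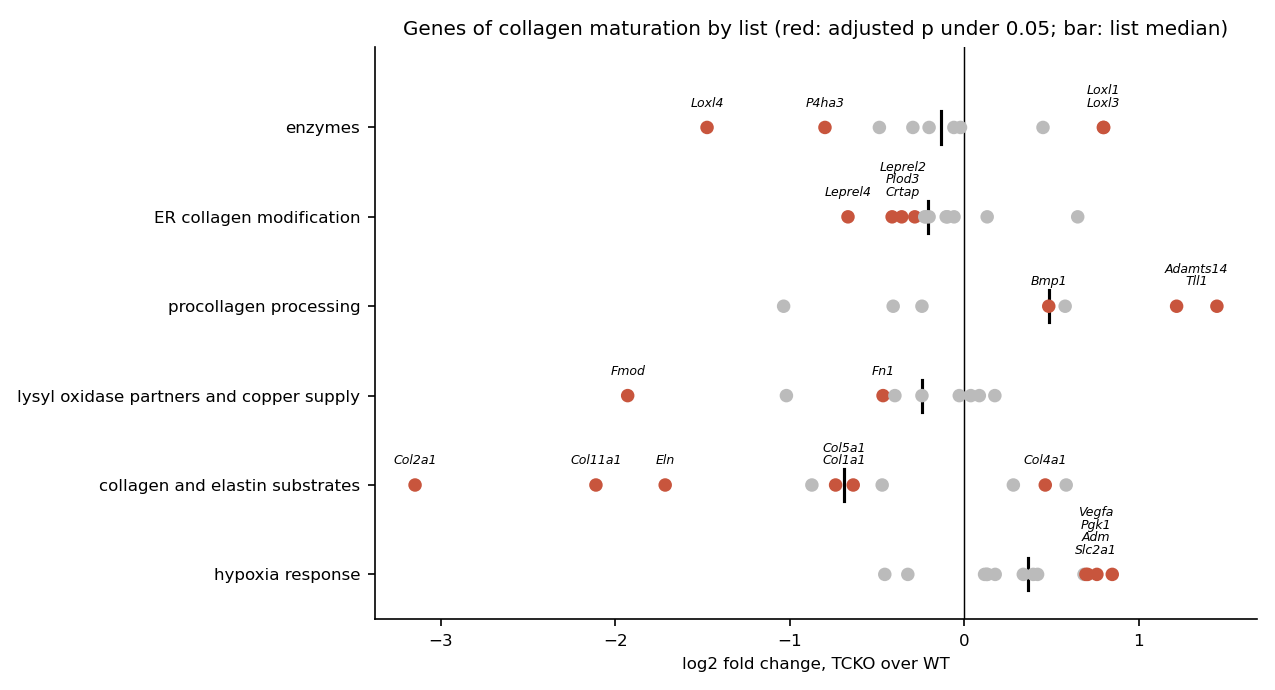
Log2 fold change of TCKO over WT (x axis) of each tested gene in the 10 enzyme genes and 5 lists of related genes, with red points and names for an edgeR adjusted p under 0.05, grey points for the rest and a bar for each list's median. Medians run from −0.69 for the substrates to 0.48 for procollagen processing.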

How the data were processed

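The authors deposited raw read counts per gene symbol for 6 libraries, 3 WT and 3 TCKO, from total RNA of primary osteoblasts. HISAT2 and GRCm38 are named in the submitters' processing notes and STAR in the published methods. No source used here names the counting program. The authors' means, fold changes, p-values and FDR stand in the same table and were not used. The smallest total of a listed gene over the 6 libraries is 10 reads, so no level is given for an unlisted gene.

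Counts were tested in R 4.3.3 with edgeR 4.0.16 (filterByExpr, TMM, robust glmQLFit and glmQLFTest, genotype as the only term), with Benjamini-Hochberg adjustment over the 13630 genes tested and 2825 set aside. Libraries held 8119261 to 10657824 reads, so 1 CPM is about 8 to 11 reads. Alternatives were RLE scaling, no filter, DESeq2 1.42.0, limma-voom 3.58.1, a replicate block, single libraries left out, replicates 1 and 2 summed, replicate 3 of both genotypes left out or taken alone, a fold above 2, and ratios without gene length. Taking replicate 3 alone was chosen after seeing the data. Deviations of same-numbered samples from their genotype means correlated at 0.21, 0.21 and 0.34, and the numbers were taken as pairing because all 3 are over 0.1, though the labels do not say what they mark. WT 2 correlated best with TCKO 1 (0.26), and WT 1 with TCKO 2 reached 0.19. Both are also over 0.1, so these correlations do not tell numbers 1 and 2 apart as pairs.

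Gene positions and promoters are from RefSeq (GRCm38.p6) and exon lengths from GENCODE M21. The 10 members and all lists were chosen with earlier results of these data known. Genes named were the 10 members, the 4 of each related list with the smallest adjusted p under 0.05, Plod3, P4hb, Col1a1, Col1a2 and the 2 nearest profiles of each called member among genes with a mean of at least 10 CPM. Tet1, Tet2, Tet3, Htra2, Pcolce, Adamts2, Car9, Ndrg1 and cell type markers were named outside that rule. The code was tested on simulated data.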

Additional observations from a re-analysis of the deposited data

How the results depend on the processing

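The sign of the 9 ratios was unchanged under the alternatives run on them, but P4ha3 to P4ha1, −0.73 over all libraries, was −0.005 in replicate 3 alone, which is no difference, and no call among Loxl1, Loxl3, Loxl4 and P4ha3 was lost with a single library left out. With replicates 1 and 2 of each genotype summed, 1 enzyme gene was higher (Loxl3) and 1 lower (Loxl4), and over all genes 197 were higher and 156 lower, against 1287 and 1213 in the fit to 6 libraries. This fit has 2 libraries per genotype. With replicate 3 of both genotypes left out, 4 enzyme genes were higher, and over all genes 3243 were higher and 3128 lower. The 2 libraries then left in each genotype are the nearly alike ones. A fold above 2 left 0 enzyme genes higher and 1 lower (410 and 417 over all genes). Over all genes, leaving out single libraries gave 612 to 1702 higher and 578 to 1611 lower, the lowest without WT replicate 2 and the highest without WT replicate 3, and the cause was not tested. The replicate block gave 1729 higher and 1623 lower over all genes and, beside the calls named with their genes above, changed no other call among the 10 enzymes. The sign of 3 enzyme genes that did not pass the test turned. P4ha1 ran from −0.16 to 0.13 with single libraries left out, positive without TCKO replicate 3, and Plod2 from −0.071 to 0.062, likewise positive without TCKO replicate 3. With replicate 3 of both genotypes left out they stood at 0.145 and 0.074, and P4ha2 at 0.068. With 3 libraries per genotype, 2 of them nearly alike, intervals such as −0.77 to 0.18 for P4ha2 leave its direction undetermined.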
